A study of Mus musculus with 5 samples.

Results

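The 7 brown fat identity genes Prdm16, Ebf2, Zic1, Ppargc1a, Ucp1, Cidea and Dio2 were examined for the repressive histone mark H3K27me3 in mouse skin fibroblasts that lacked or kept the H3K27 demethylase Kdm6b/Jmjd3. They were chosen by name, as 7 of the 21728 protein-coding genes of GENCODE M21 on the 19 autosomes and the X chromosome (mm10), and no measured value enters the rule. The study performed H3K27me3 ChIP-seq on fibroblasts from E18.5 dermis of WT embryos and of Kdm6b-cKO embryos, in which Dermo1-Cre (an allele of Twist2) deleted floxed Kdm6b (Kdm6b fl/fl) in dermal mesenchyme. Both groups were on a C57BL/6 background, were expanded in AmnioMAX culture, and, per the labels, were flow sorted for GFP+ cells, given there as the sign of conditional knockout for WT too. There were 2 libraries a group, replicates 3 and 4 of Kdm6b-cKO with replicates 7 and 9 of WT, and nothing in the labels says whether they came from separate embryos, so the p-values below measure only the spread between these libraries. An input library was not analysed here. As a model the cells stand for cultured dermal fibroblasts of late embryos, not for brown fat, and the mark was read without a matched RNA measurement.

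H3K27me3 is placed by Polycomb repressive complex 2 and removed by the demethylases Kdm6a and Kdm6b, and it lies over genes that are silent in a given cell type, often as broad domains over CpG-rich promoters. Brown fat burns fuel to make heat. Prdm16 and Ebf2 are transcription factors that set brown over white or muscle fate, Zic1 is a zinc finger factor used as a marker of classical brown fat, and Ppargc1a is the coactivator that drives mitochondrial biogenesis. Ucp1 uncouples the respiratory chain, Cidea coats lipid droplets, and Dio2 converts thyroxine to its active form inside the cell. Brown fat, dorsal dermis and trunk muscle share an embryonic source in the dermomyotome.

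The promoter sequences are shown because the 7 genes differed in CpG content as well as in the mark. Of the 7, 5 have an entry in the RefSeq promoter table (GRCm38.p6, 250 bases before to 50 after the RefSeq start, read 5′ to 3′ along the gene), and none is shown for Cidea and Ebf2. Each CpG is in capitals, all else in lower case. Prdm16 lies at chr4:154636824-154637123 (minus strand) with 24 CpG, Zic1 at chr9:91365719-91366018 (minus) with 31, Ucp1 at chr8:83290098-83290397 (plus) with 15, Ppargc1a at chr5:51567676-51567975 (minus) with 5, and Dio2 at chr12:90738989-90739288 (minus) with 3. The median over the 32851 entries of the table was 7 CpG. The RefSeq start of Dio2 lay at -600 bp from the GENCODE start used for all windows here, while those of the other 4 lay within 42 bp of it.
Prdm16: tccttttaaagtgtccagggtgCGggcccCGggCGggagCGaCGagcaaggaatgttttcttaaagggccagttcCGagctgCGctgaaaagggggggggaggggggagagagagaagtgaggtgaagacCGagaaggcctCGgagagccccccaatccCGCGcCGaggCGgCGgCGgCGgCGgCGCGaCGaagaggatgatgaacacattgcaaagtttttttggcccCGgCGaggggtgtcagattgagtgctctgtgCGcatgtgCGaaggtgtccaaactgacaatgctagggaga
Zic1: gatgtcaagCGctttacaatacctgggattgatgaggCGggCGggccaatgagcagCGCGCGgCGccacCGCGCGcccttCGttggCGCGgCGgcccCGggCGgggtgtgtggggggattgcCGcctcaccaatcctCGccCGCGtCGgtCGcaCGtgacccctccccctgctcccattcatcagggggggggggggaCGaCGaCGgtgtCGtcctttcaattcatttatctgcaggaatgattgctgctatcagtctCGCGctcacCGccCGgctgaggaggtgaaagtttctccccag
Ucp1: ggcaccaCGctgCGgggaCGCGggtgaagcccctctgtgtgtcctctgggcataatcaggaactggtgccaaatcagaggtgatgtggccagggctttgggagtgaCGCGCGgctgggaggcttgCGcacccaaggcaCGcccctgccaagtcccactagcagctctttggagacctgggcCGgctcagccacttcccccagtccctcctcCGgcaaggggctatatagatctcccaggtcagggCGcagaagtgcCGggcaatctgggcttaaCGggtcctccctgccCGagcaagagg
Ppargc1a: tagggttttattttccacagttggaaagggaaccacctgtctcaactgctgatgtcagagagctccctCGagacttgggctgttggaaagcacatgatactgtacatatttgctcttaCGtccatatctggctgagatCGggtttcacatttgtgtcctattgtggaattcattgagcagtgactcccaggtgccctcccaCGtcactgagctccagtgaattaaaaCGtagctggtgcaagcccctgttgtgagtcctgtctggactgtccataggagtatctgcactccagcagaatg
Dio2: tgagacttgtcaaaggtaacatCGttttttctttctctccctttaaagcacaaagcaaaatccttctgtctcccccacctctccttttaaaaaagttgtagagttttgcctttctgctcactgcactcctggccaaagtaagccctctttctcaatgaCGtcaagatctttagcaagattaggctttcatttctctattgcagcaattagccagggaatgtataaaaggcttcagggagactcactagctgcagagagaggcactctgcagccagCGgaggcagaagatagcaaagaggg

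The 4 peak lists differed in size before any gene was considered. Kdm6b-cKO replicates 3 and 4 held 44077 and 40565 peaks over 148 and 124 Mb, and WT replicates 7 and 9 held 29841 and 22597 peaks over 91.4 and 61.5 Mb, so that mean covered length was 1.78-fold higher in Kdm6b-cKO. Per the study's methods the libraries had been subsampled to equal depth before peaks were called. The files give no read counts, so the reads behind a single peak are not known here, and a longer covered stretch in a bulk library may come from more cells that carry the mark or from more mark per cell, which cannot be told apart. The mark cannot check the deletion: the promoter of Kdm6b itself was free of peaks in every library, and the 25 kb to either side of its start held 2.79 and 4.40 kb of peaks in Kdm6b-cKO fibroblasts, and 0 kb in both WT libraries. Among lists of cell type markers, 0 of 10 fibroblast promoters, 0 of 3 endothelial and 0 of 2 immune promoters were marked in any library. The 4 keratinocyte genes (Krt5, Krt14, Krt1, Krt10) summed to 60.3 and 56.1 kb within 25 kb of their starts in Kdm6b-cKO fibroblasts and 28.4 and 27.04 kb in WT, with Krt5, Krt14 and Krt10 at 0 in both WT libraries, and the 3 skeletal muscle genes (Myod1, Myf5, Pax7) summed to 87.6 and 85.4 kb against 67.8 and 67.7 kb, with Myf5 at 0 in WT. Their part in the results below was not tested.

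H3K27me3 covered most of the brown fat promoters already in WT fibroblasts. Counting a promoter as marked when at least 500 bp within 3 kb of the transcription start site (TSS) lay under a peak, Prdm16, Ebf2, Zic1, Cidea and Ucp1 were marked in each of the 4 libraries, which is 5 of 7 genes, against 15.2% of all protein-coding genes marked in all 4. In single libraries the share of all genes was 26.4% and 24.9% in Kdm6b-cKO fibroblasts and 19.7% and 16.3% in WT. Prdm16, Ebf2, Zic1 and Cidea were covered over the whole 6 kb window in all 4 libraries, 4 of 7 genes against 2.93% of all genes. At the other end, Ppargc1a and Dio2 had 0 bp covered at the promoter in every library, as did 68.5% of genes.

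Ucp1 was the one brown fat promoter at which the groups separated. Peaks covered 80.3% and 70.0% of its TSS ± 3 kb in Kdm6b-cKO replicates 3 and 4, against 16.2% and 25.02% in WT replicates 7 and 9. Both Kdm6b-cKO libraries lay above both WT libraries, as did 49.0% of the 6251 genes tested, those with at least 500 bp covered in 1 or more libraries. The means were 75.1 ± 7.27% and 20.6 ± 6.21% (SD, n = 2 each), a difference of 54.5 points with a limma SE of 6.02. That difference ranked 389 of 6251 from the highest and missed the threshold of 0.05 (limma, Benjamini-Hochberg adjusted p = 0.057). By limma 0 of the 5 tested members passed in either direction, 1 of them (Ucp1, higher in Kdm6b-cKO) had an unadjusted p under 0.05, and 7.93% of genes tested were called higher and 6 genes lower. The difference of the other 4 tested members was 0, since their windows were full in both groups and could not show a gain. After each library was centred on its mean over genes, the Ucp1 difference was 37.3 points (limma adjusted p = 0.024). It passed with no other peak set, filter or window. The difference was 59.6 points with equal numbers of peaks (limma adjusted p = 0.107) and 62.6 points with equal covered length (limma adjusted p = 0.180).

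The wider window of TSS ± 25 kb left room for a difference at genes whose promoters were full. Prdm16 differed the most of the 7, and the covered lengths of the members are given here in the order of their roles, with the fate regulators first. In the plot by library, Prdm16 and Ucp1 show a gap between the groups that is wide against the spread within them, while Zic1 runs the other way and Dio2 stays at 0.

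**Figure D1:**
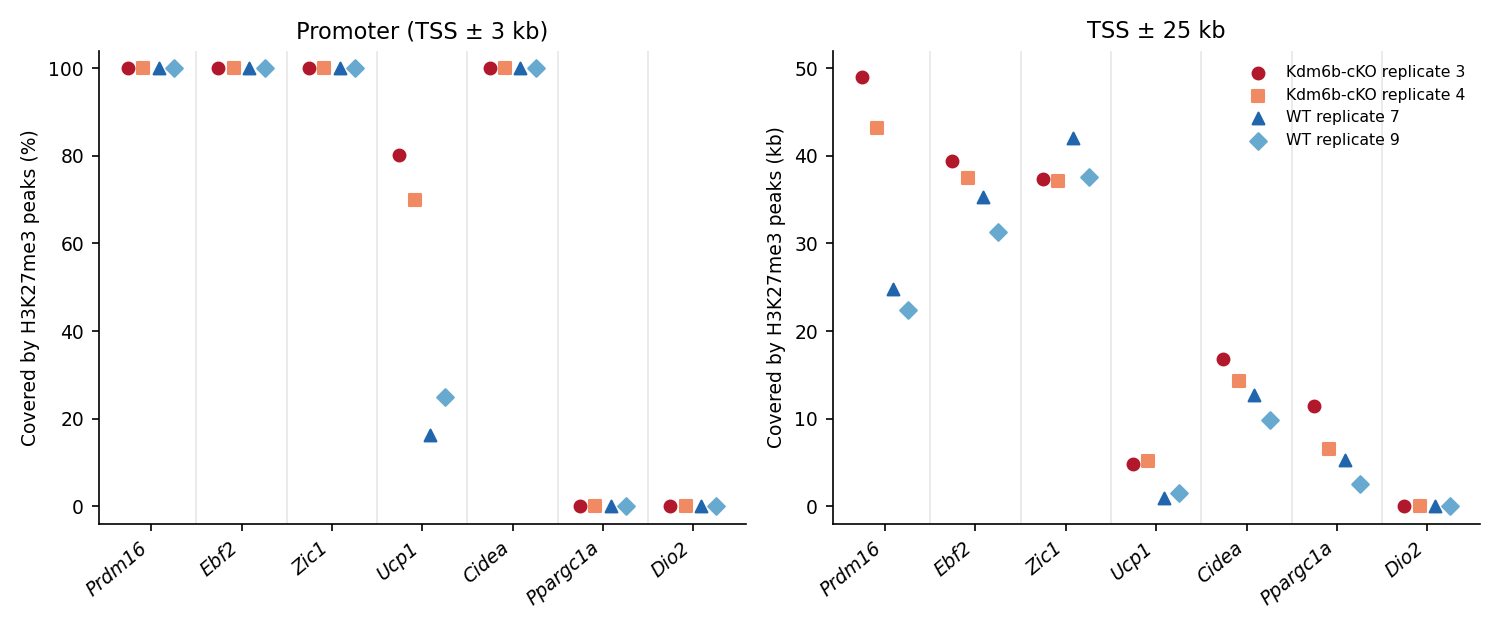
Share of TSS ± 3 kb (left, percent) and length within TSS ± 25 kb (right, kb) covered by H3K27me3 peaks for the 7 brown fat genes, 1 point per library (red and orange Kdm6b-cKO replicates 3 and 4, dark and light blue WT replicates 7 and 9). The promoters of Prdm16, Ebf2, Zic1 and Cidea are at 100% in all 4 libraries, Ucp1 runs from 16.2% to 80.3%, and within 25 kb Prdm16 shows the widest gap, from 24.8 kb in the higher WT to 43.2 kb in the lower Kdm6b-cKO library.

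Prdm16 (ENSMUSG00000039410.16, chr4:154316125-154636873, minus strand) had 48.96 and 43.2 kb of the 50 kb around its start covered in Kdm6b-cKO replicates 3 and 4, and 24.8 and 22.4 kb in WT replicates 7 and 9. The groups did not overlap, and the gap between them was wider than the range within either. The means of 46.1 ± 4.08 and 23.6 ± 1.73 kb (SD, n = 2 each) differed by 22.5 kb (limma SE 2.46, adjusted p = 0.038), which ranked 125 of 11829 genes tested from the highest. Prdm16 was thus 1 of 6 tested members called higher by limma in this window, beside 7.69% of all genes tested, and 0 members and 0 of all genes were called lower, with 0 members and 17 genes lower at an unadjusted p under 0.05. The call was lost with equal numbers of peaks (22.5 kb, limma adjusted p = 0.052), with equal covered length (13.6 kb, adjusted p = 0.1002), with peaks at −log10 q of at least 3 (adjusted p = 0.060) and without the filter on low values (adjusted p = 0.169). It was also lost when any one library was left out, with adjusted p = 0.133 and 0.095 without Kdm6b-cKO replicates 3 and 4 and 0.061 and 0.140 without WT replicates 7 and 9, while the difference stayed between 19.6 and 25.4 kb.

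The extra covered length at Prdm16 lay mostly outside TSS ± 10 kb. Within TSS ± 10 kb the covered length was 20 kb in both Kdm6b-cKO libraries and 19.5 and 18.3 kb in WT (limma adjusted p = 0.323). That window was full in both Kdm6b-cKO libraries and nearly full in WT, so it left little room for a gain. The peak over the start reached 39.9 and 24.6 kb in Kdm6b-cKO fibroblasts and 22.7 and 20.4 kb in WT. Its MACS2 fold enrichment was 4.91, 5.04, 4.43 and 4.43 in the same order, values that compare only within a library's own list. Its upstream edge was alike in the 4 libraries, 14.5, 14.1, 13.2 and 12.1 kb before the start, whereas the downstream edge ran to 25.4 kb in Kdm6b-cKO replicate 3 and to 10.4, 9.52 and 8.26 kb in the others. In replicate 4 the same downstream stretch was covered by a row of separate shorter peaks. Past the shared upstream edge the groups differed too, through further peaks. Within the 25 kb upstream of the start, 24.0 and 22.3 kb were covered in Kdm6b-cKO fibroblasts and 15.3 and 13.3 kb in WT. Further out the gap widened: within 50 kb of the start 76.1 and 70.6 kb were covered against 27.7 and 23.4 kb (a difference of 47.8 kb, limma adjusted p = 0.033), and within 100 kb it was 137 and 132 kb against 32.9 and 24.2 kb.

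**Figure D2:**
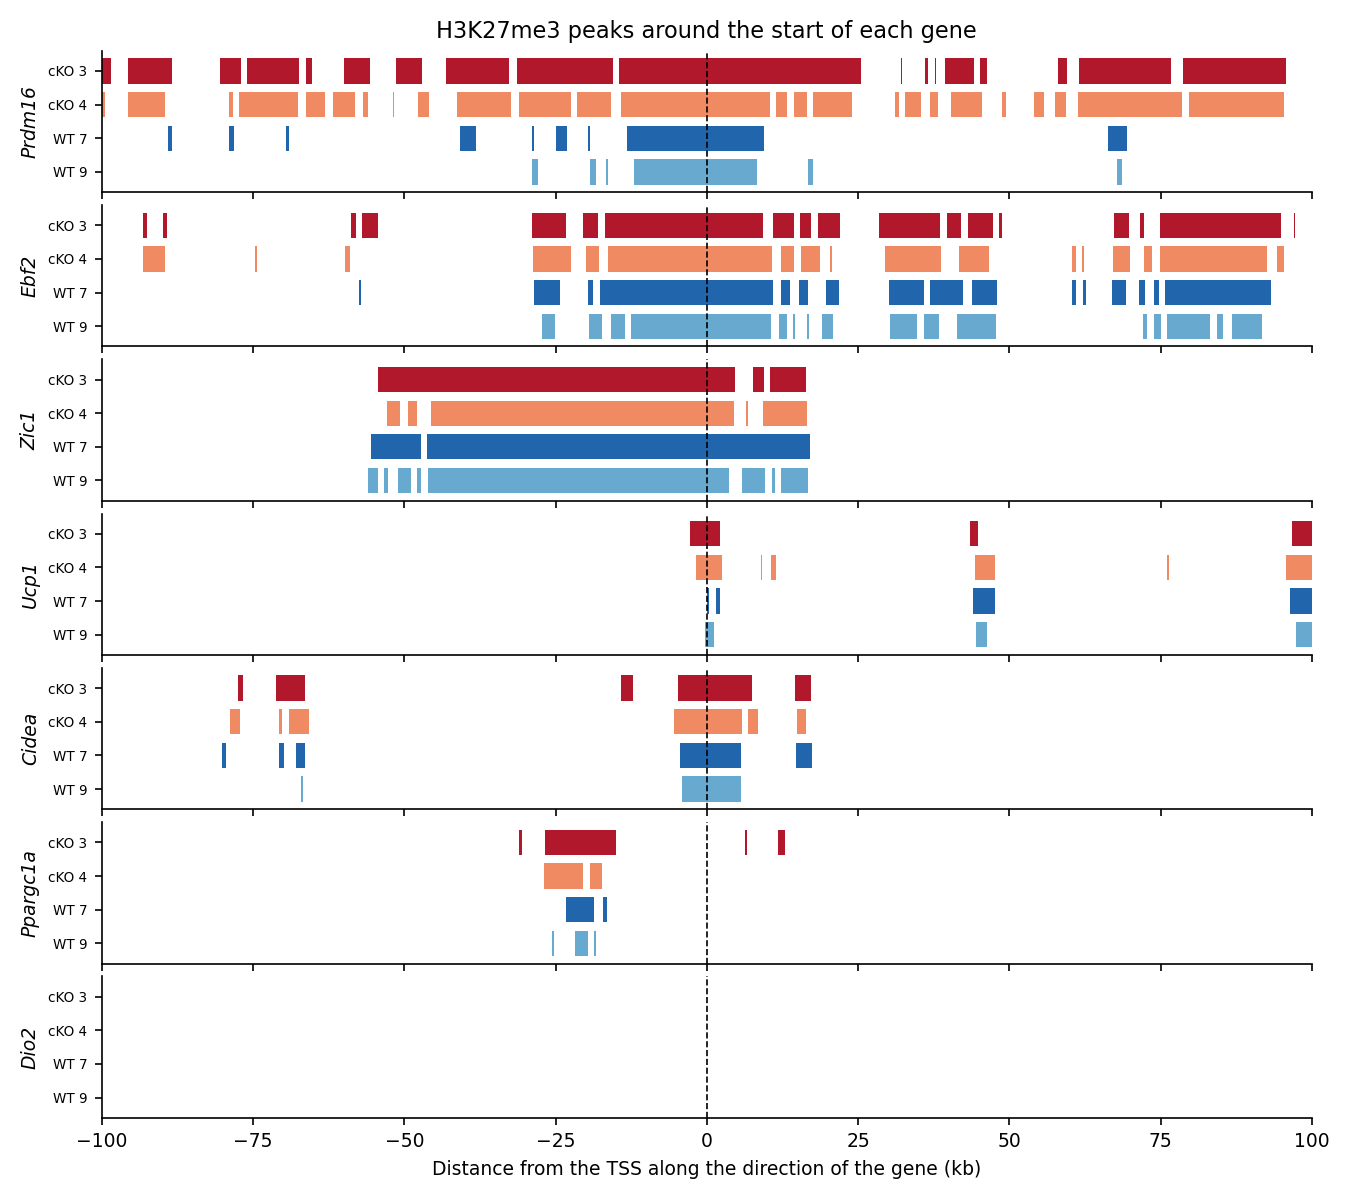
H3K27me3 peaks within 100 kb of the start of each brown fat gene, drawn by distance from the TSS along the direction of the gene (kb, dashed line at 0), 1 row per library. Prdm16 carries a peak of 20.4 to 39.9 kb over its start in every library and further peaks to both sides that are denser in the Kdm6b-cKO rows, the Zic1 and Ebf2 domains span much the same stretch in all 4 libraries, Ppargc1a has peaks upstream but none over its start, and Dio2 has none.

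Along the 321 kb gene body of Prdm16 the groups stood far apart. Peaks covered 192 and 185 kb of it in Kdm6b-cKO fibroblasts and 41.4 and 29.5 kb in WT, or 59.9% and 57.7% against 12.9% and 9.18%. The difference in share was 47.8 points (limma SE 1.94, adjusted p = 0.018), and the mean covered length was 5.33-fold higher in Kdm6b-cKO. That difference in share ranked 529 of 6254 genes tested from the highest, beside a mean difference of 15.3 points over all genes tested. The gene body held 38 and 42 peaks in Kdm6b-cKO fibroblasts and 17 and 10 in WT, the longest of 44.6, 27.9, 22.7 and 20.4 kb. Exons, 9.32 kb in all, were covered over 33.6% and 48.1% in Kdm6b-cKO fibroblasts and 1.62% and 1.73% in WT, and introns over 60.7% and 58.0% against 13.2% and 9.41%. When the gene was cut into 10 equal segments, both Kdm6b-cKO libraries lay above both WT libraries in all 10, and segments 2, 4, 9 and 10 held no peak in either WT library. With equal covered length the body difference was 18.5 points (limma adjusted p = 0.152). The call was also lost without the filter (adjusted p = 0.066) and without Kdm6b-cKO replicate 3 (0.069), Kdm6b-cKO replicate 4 (0.063) or WT replicate 9 (0.076).

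Ebf2 (ENSMUSG00000022053.13, chr14:67233292-67430918, plus strand), which selects brown precursors, was heavily marked in both groups. Within TSS ± 25 kb 39.4 and 37.5 kb were covered in Kdm6b-cKO fibroblasts and 35.4 and 31.3 kb in WT, with both Kdm6b-cKO libraries above both WT libraries by a margin smaller than the gap between the WT libraries. The difference was 5.14 kb (limma SE 1.83, adjusted p = 0.158) and turned to -5.24 kb with equal covered length (adjusted p = 0.081). Its start lay under a peak of 26.1, 27.1, 28.5 and 23.2 kb for Kdm6b-cKO replicates 3 and 4, then WT replicates 7 and 9. Over its 198 kb gene body the share was 57.7% and 45.1% against 53.5% and 40.8%, so the groups overlapped (a difference of 4.26 points, SE 7.91, limma adjusted p = 0.749). Ebf2 is a long gene like Prdm16, and the drawing of both genes by segment sets its overlapping lines beside the separate ones of Prdm16.

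**Figure D3:**
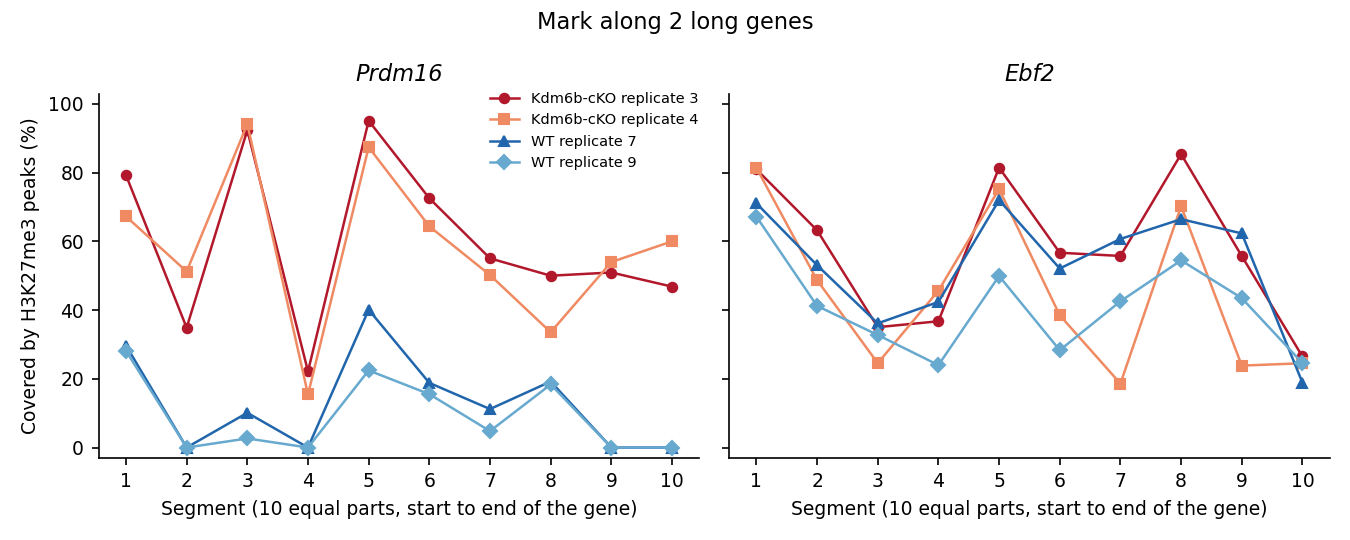
Share of each of 10 equal segments covered by H3K27me3 peaks (percent) from the start (1) to the end (10) of Prdm16 (left) and Ebf2 (right), 1 line per library (red and orange Kdm6b-cKO, blue WT). At Prdm16 the Kdm6b-cKO lines run between 15.4% and 95.1% and the WT lines between 0% and 40.1%, whereas at Ebf2 the 4 lines cross.

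Zic1 (ENSMUSG00000032368.14, chr9:91358058-91365810, minus strand) ran against the rest. Within 25 kb of its start 37.4 and 37.1 kb were covered in Kdm6b-cKO fibroblasts and 42.1 and 37.5 kb in WT. Both WT libraries lay above both Kdm6b-cKO libraries, WT replicate 9 by only 0.133 kb, and 1.67% of genes tested showed that order. The difference of -2.55 kb did not pass (limma SE 1.84, adjusted p = 0.396) and was -0.28 kb without WT replicate 7. Centring of each library takes off the mean difference of 4.06 kb over all genes tested. After it the Zic1 difference was -6.60 kb and called (limma adjusted p = 0.0096). All 25 kb upstream of the start were covered in the 4 libraries, so that part could not gain while centring still took off the mean. The start lay under the longest peak of any member, 59.0, 50.2, 63.3 and 49.8 kb in the usual order of libraries. It reached 45.6 to 54.4 kb upstream of the start in the 4 libraries, and 4.61, 4.54, 17.1 and 3.67 kb downstream, so that in WT replicate 7 it crossed the whole gene. The 7.75 kb gene body was covered over 61.6% and 63.9% in Kdm6b-cKO fibroblasts and 100% and 72.7% in WT (a difference of -23.6 points, SE 12.1, limma adjusted p = 0.313, and -38.9 points with adjusted p = 0.034 after centring). Its neighbour Zic4, which starts 3.40 kb away on the other strand and shares most of the window, showed promoter coverage of 70.3% and 69.0% in Kdm6b-cKO fibroblasts and 100% and 64.7% in WT, so the groups overlapped there.

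Ppargc1a (ENSMUSG00000029167.13, chr5:51454250-51567726, minus strand) had no mark at its start, but each library held peaks upstream. Within TSS ± 25 kb 11.4 and 6.48 kb were covered in Kdm6b-cKO fibroblasts and 5.24 and 2.49 kb in WT, of which 9.93, 6.48, 5.24 and 2.49 kb lay upstream. The groups did not overlap, but Kdm6b-cKO replicate 4 was nearer to WT replicate 7 than to its own partner. The difference of 5.08 kb did not pass (limma SE 2.23, adjusted p = 0.216) and turned to -1.25 kb with equal covered length (adjusted p = 0.588). The nearest peak lay 6.32 kb from the start in Kdm6b-cKO replicate 3, inside the gene, and 17.3, 16.5 and 18.3 kb away in the other libraries. For the alternative starts of Ppargc1a-203 and Ppargc1a-205, 13.8 kb into the gene, 18.5% of the window was covered in Kdm6b-cKO replicate 3 and 0% in the other libraries.

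Among the effectors, Ucp1 (ENSMUSG00000031710.4, chr8:83290352-83298452, plus strand) had a short domain that was confined to the surroundings of its start. Within TSS ± 25 kb 4.82 and 5.22 kb were covered in Kdm6b-cKO fibroblasts and 0.974 and 1.501 kb in WT, a 4.06-fold higher mean. The groups stood 3.32 kb apart, and the difference of 3.78 kb missed the threshold (limma SE 0.687, adjusted p = 0.064). After centring it was -0.27 kb (adjusted p = 0.904), since the difference at Ucp1 in kb was near the mean difference of 4.06 kb over all genes tested, which centring removes. The start lay under a peak of 4.82 and 4.2 kb in Kdm6b-cKO fibroblasts and 1.501 kb in WT replicate 9, and in WT replicate 7 it lay 0.037 kb outside a peak of 0.361 kb. By −log10 q the peaks nearest to the start stood at percentiles 95.0 and 94.1 of their lists in Kdm6b-cKO fibroblasts and at percentiles 65.7 and 48.98 in WT replicates 7 and 9. Upstream of the start 2.71 and 1.71 kb were covered in Kdm6b-cKO fibroblasts against 0 and 0.309 kb in WT. Over the gene body the share was 26.0% and 30.8% against 12.0% and 14.7% (limma adjusted p = 0.080).

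Cidea (ENSMUSG00000024526.9, chr18:67343604-67367785, plus strand) was covered over 16.8 and 14.3 kb of TSS ± 25 kb in Kdm6b-cKO fibroblasts and 12.7 and 9.90 kb in WT. The groups did not overlap, but the gap of 1.63 kb between them was narrower than the range within either, and the difference of 4.28 kb did not pass (limma SE 1.56, adjusted p = 0.164). Its start peak was 12.2, 11.3, 10.0 and 9.90 kb long, so the core domain was shared by the groups and was longer in Kdm6b-cKO. Short peaks beside it were fewer in WT, though the longest of them, 2.65 kb, was in WT replicate 7. Dio2 (ENSMUSG00000007682.6, chr12:90724552-90738438, minus strand) had 0 kb covered in every library. Its nearest peak lay 491, 507, 504 and 507 kb away, and 19.97% of genes had no peak within 100 kb in any library.

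Counted over the window of TSS ± 25 kb, both Kdm6b-cKO libraries lay above both WT libraries at 5 of the 6 members with coverage, against 65.3% of the 11829 genes tested, so that order by itself was usual. The median difference of the 6 was 4.68 kb beside 2.41 kb over all genes tested, as a description of these libraries. In the gene body the same order held at 3 members (Prdm16, Ucp1 and Cidea) of 6 tested, against 63.1% of the 6254 genes tested, and 1 member, Prdm16, was called higher by limma against 10.6% of genes tested. A single call among 6 genes is close to the background share, and the plot of all differences shows where each member fell.

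**Figure D4:**
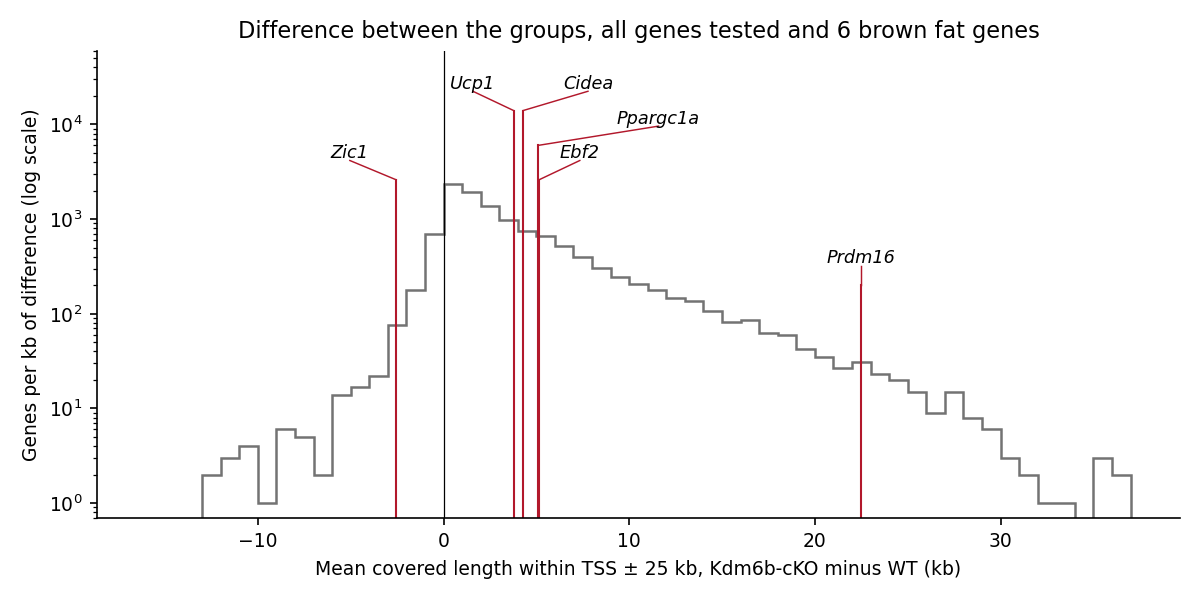
Number of genes (log scale) by the difference in mean covered length within TSS ± 25 kb, Kdm6b-cKO minus WT (kb), for the 11829 genes tested, with red lines at the 6 brown fat genes with coverage. Prdm16 at 22.5 kb lies far in the right tail, and Ucp1, Cidea, Ppargc1a and Ebf2 lie between 3.78 and 5.14 kb in the bulk. Zic1 at -2.55 kb lies in the left tail, at rank 11723 of 11829 from the highest.

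The regulators with full promoters were rich in CpG. Within TSS ± 3 kb Prdm16 held 395 CpG, Ebf2 274 and Zic1 238, against a median of 108 over all promoters, and 0.0782%, 1.85% and 4.09% of promoters held as many. Cidea was as full of mark with 108 CpG, the median itself, and Ucp1 held 94. The promoters without mark, Dio2 and Ppargc1a, had the fewest, 65 and 51. Over all genes the median was 135 CpG for promoters marked in all 4 libraries and 106 for those marked in none, with overlapping quartiles (94 to 183 and 50 to 150). Promoters marked in 1, 2 and 3 libraries had medians of 95, 93 and 99 CpG, below the 106 of those marked in none. The order by CpG thus matched the order by mark among the 7, with Cidea and Ucp1 next to each other, but not over all genes.

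**Figure D5:**
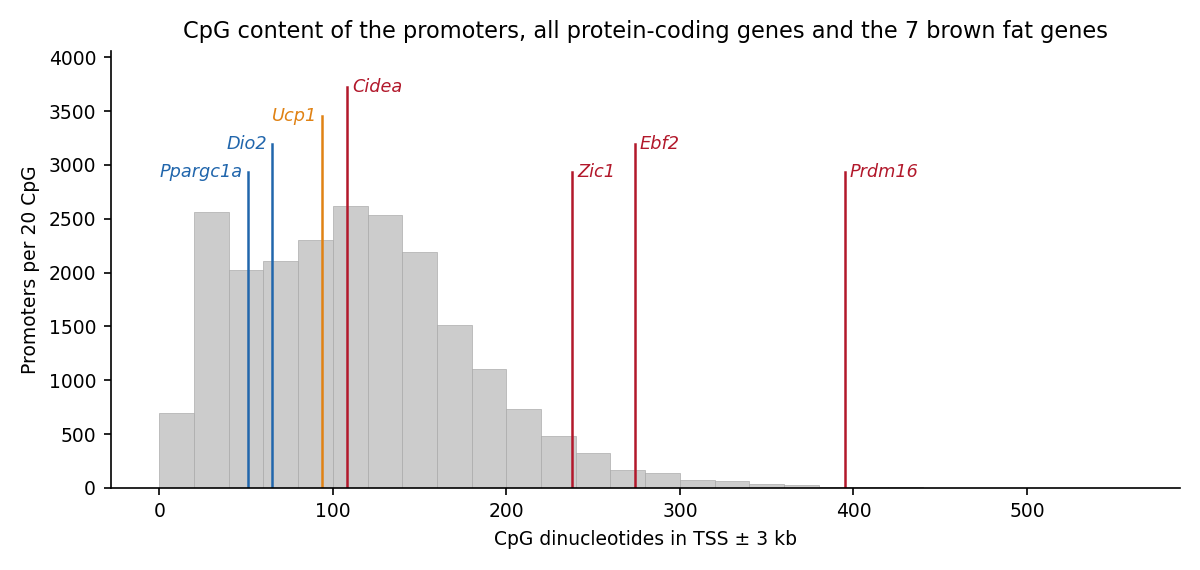
Number of promoters by CpG count in TSS ± 3 kb (bins of 20 CpG), with lines at the 7 brown fat genes coloured by mark at the promoter (red, fully covered in all 4 libraries, orange, partly covered, blue, not covered). The 4 red lines lie at or above the median of 108 CpG, Ucp1 at 94, and the blue lines at 65 and 51.

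Transcripts beside the members followed the windows they share. Non-coding genes start on the opposite strand at -0.703 kb from the start of Prdm16 (Gm13111), at -0.163 kb from that of Ebf2 (Gm20675) and 0.499 kb inside Cidea (B430212C06Rik), and all 3 had promoters covered over 100% in all 4 libraries, so the mark cannot be assigned to one gene of a pair. The protein-coding neighbour of Prdm16, Actrt2, an actin-related gene that starts at -31.0 kb, was covered over 77.5% and 78.7% of its promoter in Kdm6b-cKO fibroblasts and 5.08% and 15.7% in WT. That stretch belongs to the upstream region of Prdm16 described above. Elmod2, 42.1 kb into the region downstream of the Ucp1 start, had 22.9% and 14.4% against 20.2% and 10.3%, and Tubb6, 47.1 kb downstream of the Cidea start, had none.

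Genes of other loci with like covered lengths were found by the Euclidean distance over the 4 libraries within TSS ± 25 kb. Nearest to Prdm16 were Krt77, an epidermal keratin (44.8 and 42.2 kb in Kdm6b-cKO, 23.0 and 20.6 kb in WT, distance 4.96 kb), Slc25a48 (distance 5.18 kb) and Wnk2 (5.67 kb). Nearest to Ucp1 were Vinac1, 2310034G01Rik and Mmp11, at distances of 0.238 to 0.616 kb, and nearest to Cidea were Tpd52l2, Nr1h2 and Ebi3, at 0.446 to 1.19 kb. Mpzl2, Rhbg and Sim2 were nearest to Ebf2 (1.82 to 2.54 kb), and Pou3f3, Ifna4 and Otp to Zic1 (2.59 to 3.12 kb). Pou3f3 and Otp are developmental transcription factors of the nervous system. Pou3f3 had 37.9 and 38.4 kb against 41.1 and 39.5 kb, while the groups overlapped at Ifna4 (40.2 and 38.0 against 42.5 and 37.2 kb) and at Otp. All these genes were picked for likeness in the same 4 values, so a like order of groups follows from the choice.

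Of the 22 relatives of the 7 genes that were listed, 14 had a promoter marked in all 4 libraries, against 15.2% of all protein-coding genes. The list was chosen with earlier results known, and Zic4 shares most of its window with Zic1. The count therefore describes the listed genes and not whole families. Prdm6, Prdm12, Prdm13 and Prdm14 had full promoters in every library, as did Ebf3, Zic2, Zic5 and Dio3. Within 25 kb 0 of 21 tested relatives were called by limma in either direction, beside 7.69% of all genes tested called higher. At an unadjusted p under 0.05, 3 of the 21 were higher, beside 3993 of all 11829 genes tested. Dio3, which inactivates thyroid hormone, had 47.0 and 47.2 kb in Kdm6b-cKO fibroblasts and 39.6 and 33.5 kb in WT (limma adjusted p = 0.085), where Dio2 had none. Prdm13 differed by 7.82 kb (limma adjusted p = 0.208). Cidec, the lipid droplet relative of Cidea, was covered over 34.6% and 35.3% of its promoter in Kdm6b-cKO fibroblasts and 0% in both WT libraries. It was the 1 of 17 tested relatives called at the promoter (limma adjusted p = 0.013), beside 7.93% of all genes tested called higher. With equal numbers of peaks the Cidec difference was 22.8 points (limma adjusted p = 0.427). Within 25 kb Cidec had 14.7 and 14.0 kb against 7.52 and 4.003 kb (limma adjusted p = 0.061).

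Other regulators of brown fat showed no call. Of 18 genes, 5 had a promoter marked in all 4 libraries, among them Irf4, Lhx8, Esrrg and Zbtb16 at 100% in each. In the window of 25 kb limma called 0 of 13 tested genes in either direction, beside 7.69% of all genes tested called higher. At an unadjusted p under 0.05, 0 of the 13 differed, beside 3993 of all 11829 genes tested higher. The differences were 6.09 kb at Zbtb16, 5.73 kb at Ppara, 5.20 kb at Irf4 and 3.33 kb at Zfp516, with limma adjusted p from 0.153 to 0.332. Pparg, the master regulator of all fat cells, had 0.498 to 1.36 kb covered over the 4 libraries, with overlapping groups. Of 18 thermogenic effectors, 7 were marked in all 4 libraries and 0 of 13 tested were called by limma within 25 kb. At an unadjusted p under 0.05, 5 of these 13 were higher and 0 lower, beside 3993 of all 11829 genes tested higher, which is a like share. Kcnk3, a potassium channel of brown fat, had 40.1 and 37.7 kb in Kdm6b-cKO fibroblasts and 24.6 and 13.3 kb in WT (limma adjusted p = 0.082). Otop1, Fabp3 and Gatm, a creatine synthesis enzyme, differed by 8.65, 8.16 and 8.14 kb (limma adjusted p = 0.065, 0.071 and 0.092). Of 11 repressors of the brown program, 3 were marked in all 4 libraries and 0 of 7 tested were called by limma within 25 kb, with 1 higher at an unadjusted p under 0.05. Foxo1, Foxp1, Zfp423 and Hoxc10 differed by 5.62, 4.30, 4.14 and 2.99 kb, with limma adjusted p from 0.097 to 0.579.

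Among signals that induce brown fat and markers of its lineage, 1 gene of each list was called within 25 kb, beside the background of 7.69% of genes tested. Of 14 inducing signals, 9 had a promoter marked in all 4 libraries, and Adora2a, an adenosine receptor of brown fat, was the 1 of 12 tested that was higher within 25 kb. It had 22.4 and 23.5 kb in Kdm6b-cKO fibroblasts and 10.6 and 7.41 kb in WT (limma adjusted p = 0.037, and 0.108 with equal covered length). Bmp7, which commits cells to brown fat, had 28.4 and 31.9 kb against 17.9 and 13.8 kb (limma adjusted p = 0.052), and Bmp8b differed by 8.72 kb (limma adjusted p = 0.135). Fgf21, a hormone that raises thermogenesis, differed by 12.6 kb (limma adjusted p = 0.066), and at its promoter, covered over 19.8% and 17.8% against 1.95% and 0%, it was called (limma adjusted p = 0.039). That call was lost after centring (0.61 points, limma adjusted p = 0.964), with no filter (adjusted p = 0.172) and when any one library was left out (adjusted p from 0.089 to 0.166). Of 14 beige and lineage markers, 7 were marked in all 4 libraries and 1 of 14 tested was higher within 25 kb. This was En1, which marks the dermomyotome that gives dorsal dermis and brown fat, with 10.7 and 9.45 kb in Kdm6b-cKO fibroblasts and 4.37 and 3.95 kb in WT (limma adjusted p = 0.047), and it turned to -3.50 kb with equal covered length (limma adjusted p = 0.108). Tbx1, a beige marker, differed by 14.8 kb, the amino acid transporter Slc36a2 by 14.7 kb and Sh2b2 by 5.38 kb (limma adjusted p = 0.067, 0.067 and 0.099). In these 6 lists, from the relatives to the lineage markers, 0 genes were called lower by limma within 25 kb, and 0 had an unadjusted p under 0.05 in that direction.

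Genes of the related muscle and skin fates were examined with the same fit, since Prdm16 opposes muscle fate. Myod1, the muscle master regulator, had 36.9 and 34.3 kb in Kdm6b-cKO fibroblasts and 17.8 and 17.7 kb in WT and was called higher within 25 kb (limma adjusted p = 0.029), while Pax7 was covered over the whole 50 kb in all 4 libraries and Myf5 had 0.743 and 1.18 kb against 0 kb. Krt5, listed at 0 in WT, had 7.76 and 6.89 kb in Kdm6b-cKO (limma adjusted p = 0.035), and Krt1 had 44.7 kb in both against 28.4 and 27.04 kb (limma adjusted p = 0.027, and 0.203 with equal covered length). Krt14 and Krt10 had 2.10 to 5.25 kb in Kdm6b-cKO fibroblasts and 0 kb in WT (limma adjusted p = 0.112 and 0.142). Of the 2 melanocyte genes Dct showed promoter coverage of 25.8% and 22.4% in Kdm6b-cKO fibroblasts and 0% in WT (limma adjusted p = 0.032) and Pmel had none. Pdgfrb, a fibroblast marker, had 5.51 to 9.70 kb within 25 kb and 0% of its promoter covered in every library. Postn, Twist2 and Pdgfra differed by 1.34, 1.37 and 0.75 kb (limma adjusted p from 0.457 to 0.572). Cdh5 (1.80 kb, limma adjusted p = 0.225) and Csf1r (0.805 kb, limma adjusted p = 0.451) were the endothelial and immune genes with any coverage, and Pecam1, Tek and Ptprc had 0 kb. Without Kdm6b-cKO replicate 3, Kdm6b-cKO replicate 4 or WT replicate 9, limma called 0 of the 11829 genes tested within 25 kb (3065, 3808 and 2428 higher at an unadjusted p under 0.05), so each call in that window rests on all 3, and without WT replicate 9 it called 0 of 6251 at the promoter (1095 higher at an unadjusted p under 0.05).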

How the data were processed

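H3K27me3 ChIP-seq peak lists of 2 Kdm6b-cKO and 2 WT fibroblast libraries were analysed. Per the labels and the study's methods, the authors fixed cells with formaldehyde, digested chromatin enzymatically, aligned reads to mm10 with Bowtie2 (2.3.5.1), subsampled libraries to equal depth and called broad peaks in each library with MACS2 (2.2.7.1), so replicates were not pooled. Each deposited list gives, per peak, a display score, a fold ratio over background, and the −log10 p and −log10 q values of the authors' caller. The lists hold no reads, and whether the input served as the control of the calls is not given in the sources used here.

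Peaks on the 19 autosomes and X were merged within a library and the covered bases of each gene's windows counted (GENCODE M21 protein-coding genes, GRCm38, the build of the files). The covered share of TSS ± 3 kb, the covered length within TSS ± 25 kb and the covered share of the gene body were compared with limma 3.58.1 (R 4.3.3, lmFit and eBayes, Benjamini-Hochberg adjustment over all genes tested, threshold 0.05), over genes with at least 500 bp covered in 1 or more libraries. Coverage counting and the limma step were tested on simulated data. The 7 genes and all gene lists were chosen with earlier results of these data known. Beside the 7 genes, the text names up to 4 genes of each list with the largest difference within TSS ± 25 kb and any gene called there, the 3 genes most alike to each marked member in their 4 covered lengths (starts over 50 kb away), and protein-coding neighbours within 50 kb. One gene that this rule names is not reported here. Other relatives, regulators and non-coding genes were named after their values were seen. Alternatives were equal numbers of peaks, equal covered length, −log10 q of at least 3, peaks of at least 1000 bp, centring, other filters, other windows and leaving out each library.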

Additional observations from a re-analysis of the deposited data

How the results depend on the processing

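No paired analysis was possible because the 2 groups share no replicate number. The peak lists hold no reads, and the groups differed in total covered length although, per the study's methods, the libraries had been subsampled to equal depth. At the promoter 0 members were called higher in the 6251 genes tested, and 1 (Ucp1) after centring. Within TSS ± 25 kb the count of members called higher went from 1 to 0 with equal numbers of peaks, equal covered length, −log10 q of at least 3, no filter and TSS ± 10 kb, and 1 (Zic1) was called lower after centring. In the gene body it went to 0 with equal covered length and no filter, and 1 (Zic1) was called lower after centring. With 1 library left out, the fit holds a lone library in 1 group, which is assumed to vary like the other group. What this did to the Prdm16 calls is given above. Without Kdm6b-cKO replicate 4 the gene body difference of Ppargc1a was 1.31 points. That difference rested on Kdm6b-cKO replicate 3 alone, since the Ppargc1a gene body held 0 kb in both WT libraries and in Kdm6b-cKO replicate 4. Leaving out 1 library moved the count over all genes between 0 and 1419 higher and 0 and 70 lower at the promoter, 0 and 647 higher within TSS ± 25 kb, and 232 and 1409 higher and 0 and 20 lower in the gene body. The cause was not tested.

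Over all genes, the promoter count of 496 higher and 6 lower became 133 and 78 with equal covered length and 151 and 1 with no filter, and the lower count became 16 with equal numbers of peaks and 58 after centring. Within TSS ± 25 kb the count of 910 higher and 0 lower became 354 and 1 with equal numbers of peaks, 68 and 39 with equal covered length, 277 higher with −log10 q of at least 3, 1430 and 407 after centring, 178 and 3 with no filter, and 404 and 1 within TSS ± 10 kb, and the lower count was 1 with peaks of at least 1000 bp. In the gene body 660 higher and 1 lower became 125 and 36 with equal covered length and 195 and 3 with no filter, and the lower count became 9 with equal numbers of peaks, 3 with −log10 q of at least 3, 7 with peaks of at least 1000 bp, 72 after centring and 2 with a mean filter.

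Differences of members that changed sign were those of Ebf2, Ppargc1a, Ucp1 and Cidea. With equal covered length Ebf2 turned to -5.24 kb and Ppargc1a to -1.25 kb within TSS ± 25 kb, and Ebf2 to -17.3 points in the gene body. Ebf2 was -0.35 kb within TSS ± 10 kb, and in its body -1.42 points with equal numbers of peaks and between -2.07 and 10.6 points with 1 library left out, below 0 without Kdm6b-cKO replicate 3 (-2.05) and without WT replicate 9. After centring Ucp1 was -0.27 kb within TSS ± 25 kb, and gene body differences were -0.31 points at Ucp1, -5.21 at Cidea, -14.7 at Ppargc1a and -11.1 at Ebf2. Among other genes, En1 turned to -3.50 kb with equal covered length, and Myod1 to -2.11 points at the promoter after centring. With equal numbers of peaks Krt5 was 3.48 kb (limma adjusted p = 0.140) and the Dct promoter 9.48 points (limma adjusted p = 0.572). The Prdm16 difference kept its sign within TSS ± 25 kb and in the gene body under all alternatives run. In Kdm6b-cKO replicates 3 and 4 and WT replicate 9, 5 members stayed marked with other peak sets and at 1 or 1500 bp. In WT replicate 7 the count was 4 with each other peak set and at 1500 bp, where Ucp1 fell below the threshold. The promoters of Prdm16, Ebf2, Zic1 and Cidea were full in all 4 libraries and say nothing of stability. Of the other 154 differences of single members under an alternative, 124 kept their direction and their side of the threshold.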
